A study of Mus musculus with 12 samples.

Results

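The genes described here are 7 metabotropic glutamate receptor genes, Grm2 to Grm8, measured by total RNA-seq in sorted Pdgfra/GFP+ cells of the mouse. They were chosen by name as a receptor family, and their rows were found through the Ensembl identifiers of the expression table, where they are 7 of 47069 distinct identifiers. Of these 7, 6 passed the filter on low values (at least 0.7 CPM in at least 3 libraries), as did 18319 genes in all, and Grm6 did not. The study compared cells from embryonic day E13.5 and postnatal day 7 (P7), taken from the (fore)brain or the spinal cord (cord below), with 3 libraries in each of the 4 groups. All groups came from heterozygous Pdgfra-H2BGFP knock-in mice on a C57BL/6NJ background, in which a histone H2B-GFP fusion is made from 1 copy of the Pdgfra locus. Embryos and pups of both sexes were used, and each library came from a pool of animals. The sexes within each library were not stated. The GFP remains for some time in cells that have begun oligodendrocyte (OL) differentiation, so the sort is wider than OL precursor cells (OPCs). E13.5 tissue was dissociated mechanically and P7 tissue with papain, so age and dissociation cannot be told apart.

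Metabotropic glutamate receptors are G protein-coupled receptors that answer glutamate more slowly than the receptors that are ion channels. Group I, here Grm5 (mGluR5), works through Gq, phospholipase C and calcium release from internal stores. Group II (Grm2 and Grm3) and group III (Grm4, Grm6, Grm7 and Grm8) work through Gi and Go and lower cAMP, and many of them sit on nerve terminals, where they limit transmitter release. In glia the best known members are Grm3 and Grm5, and OPCs are known to form synapses with neurons. Grm6 is known as the receptor of retinal ON bipolar cells.

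In the GRCm38 (mm10) genome, with GENCODE M21 coordinates, Grm5 (ENSMUSG00000049583) lies on chr7:87584168-88134907 on the plus strand. The group II genes are Grm2 (ENSMUSG00000023192) on chr9:106643095-106656082 and Grm3 (ENSMUSG00000003974) on chr5:9485541-9725170, both on the minus strand. Of group III, Grm4 (ENSMUSG00000063239) lies on chr17:27422387-27521403 (minus), Grm6 (ENSMUSG00000000617) on chr11:50850685-50866208 (plus), Grm7 (ENSMUSG00000056755) on chr6:110645581-111567230 (plus) and Grm8 (ENSMUSG00000024211) on chr6:27275119-28135178 (minus). They are protein-coding genes with merged exon lengths between 3.05 kb (Grm3) and 10.2 kb (Grm5). Annotated antisense genes overlap exons of Grm2, Grm6 and Grm7, and Mir592 overlaps an exon of Grm8. Whether counting used strand was not stated, so reads of such pairs may not be separable. The overlapping genes of Grm2, Grm6 and Grm8 were at 0 CPM in every library, and the one of Grm7, Gm20387, covers 2.21% of its exon bases and reached at most 0.687 CPM.

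RefSeq promoter windows (GRCm38.p6, 250 bases before the transcript start to 50 after it) were held for 5 of the 7 genes, Grm2, Grm3, Grm6, Grm7 and Grm8. The windows of Grm3 (chr5:9725303-9725602, minus strand) and Grm8 (chr6:28135097-28135396, minus strand) are shown because both genes fell in the cord between E13.5 and P7. That of Grm6 (chr11:50850435-50850734, plus strand) is shown as the window of the gene with almost no reads. Capitals mark matches to the GC box letters GGGCGG, searched on both strands, and where several windows exist the one nearest the gene's GENCODE start was used.
Grm3: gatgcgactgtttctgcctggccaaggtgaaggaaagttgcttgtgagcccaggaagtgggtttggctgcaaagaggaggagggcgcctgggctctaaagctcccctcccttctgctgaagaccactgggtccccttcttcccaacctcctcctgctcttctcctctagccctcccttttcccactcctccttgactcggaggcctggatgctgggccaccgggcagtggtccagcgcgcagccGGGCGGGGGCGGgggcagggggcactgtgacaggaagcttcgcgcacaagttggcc
Grm8: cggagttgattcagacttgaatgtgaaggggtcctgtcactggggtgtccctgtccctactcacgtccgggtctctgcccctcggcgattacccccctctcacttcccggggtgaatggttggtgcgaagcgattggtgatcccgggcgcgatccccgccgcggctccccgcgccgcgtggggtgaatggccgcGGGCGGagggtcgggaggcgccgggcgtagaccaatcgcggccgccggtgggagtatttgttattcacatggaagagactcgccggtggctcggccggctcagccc
Grm6: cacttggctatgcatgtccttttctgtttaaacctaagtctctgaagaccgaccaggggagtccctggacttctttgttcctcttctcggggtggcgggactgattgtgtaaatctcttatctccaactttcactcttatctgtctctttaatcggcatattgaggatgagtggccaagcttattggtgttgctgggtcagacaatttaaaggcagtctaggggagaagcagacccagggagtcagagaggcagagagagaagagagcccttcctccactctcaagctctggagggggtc
The Grm3 window holds 2 GC boxes side by side and 11 CG dinucleotides, the Grm8 window 1 GC box and 33 CG dinucleotides, and the Grm6 window no GC box and 4 CG dinucleotides. Across 32851 windows of the same length, 35.66% hold GGGCGG and the median number of CG dinucleotides is 7. The Grm6 window also holds 1 match to ACAAAG, the core letters bound by SOX factors, which 18.71% of windows hold, and no other window of the 5 has one. The E-box letters CANNTG, present in 72.31% of windows, occur in those of Grm6 and Grm8 (1 match each). The letters TATAAA, present in 13.62% of windows, occur in none of the 5. These are matches of letters only, and no binding was measured.

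Values are CPM as deposited, that is read counts scaled to a common library size, with sizes rescaled by the authors. The reads behind them, recovered from the steps of the CPM values, ranged from 12566345 to 38790312 per library, and every P7 library was deeper than every E13.5 library. E13.5 cord replicate 3 stands apart: 40.97% of its reads came from protein-coding genes, against 82.4 to 91.2% in the others, and 3 reads of a gene amount to 0.506 CPM there, against 0.0792 to 0.179 CPM elsewhere. P7 replicates 1 and 2 of each region were closer to each other (SD of log2 ratios 0.0647 in brain and 0.0666 in cord) than to replicate 3 (0.169 to 0.214), although their values were not identical. With E13.5 cord replicate 3 left out, or with P7 replicates 1 and 2 averaged, the calls of Grm3, Grm4, Grm5 and Grm8 below stayed as they were, and 1 call of Grm2 (the change with age of its region difference) was lost (adjusted p = 0.0517 and 0.0584). Summed CPM of 6 OPC markers was 512 to 1406 at E13.5 and 8241 to 8673 at P7, and that of 8 mature OL markers was 14724 to 18857 in P7 cord against 938 to 2395 in P7 brain. Opalin, a mature OL marker, was at 0 in E13.5 cord. The 9 vascular and leptomeningeal markers summed to 5939 to 12739 CPM at E13.5 and 1083 to 2600 at P7. The 11 neuron markers summed to 637 to 920 CPM at E13.5 and 295 to 355 at P7. The 8 microglia markers, of which 7 were tested, summed to 20.1 to 32.9 CPM in brain and 47.9 to 75.1 in cord at E13.5, but to 32.7 to 69.4 in brain and 16.7 to 24.6 in cord at P7. The 6 red blood cell markers summed to 48.1 to 141 CPM at E13.5, and at P7 to 32.1 to 59.5 in brain and 8.004 to 13.9 in cord. In such bulk samples, fewer cells of a type and less RNA per cell cannot be told apart.

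The deposited scaling equals TMM within 0.1% in 9 libraries, while the P7 brain libraries were divided by sizes 13.1 to 16.3% larger. Under TMM the median log2 difference of all genes between P7 and E13.5 brain moved from -0.19 to -0.02, and that between brain and cord at P7 from -0.19 to -0.02. The median change with age of the region difference moved from -0.24 to -0.07. No call of a receptor gene was gained or lost with TMM or median-ratio scaling. A gene is called below when its adjusted p (limma with an intensity trend on log2(CPM + 0.5), Benjamini-Hochberg over 18319 genes) is under 0.05 and its change is over 2-fold. Log2 differences are on that scale and understate the change of genes near 0.5 CPM or less.

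**Figure D1:**
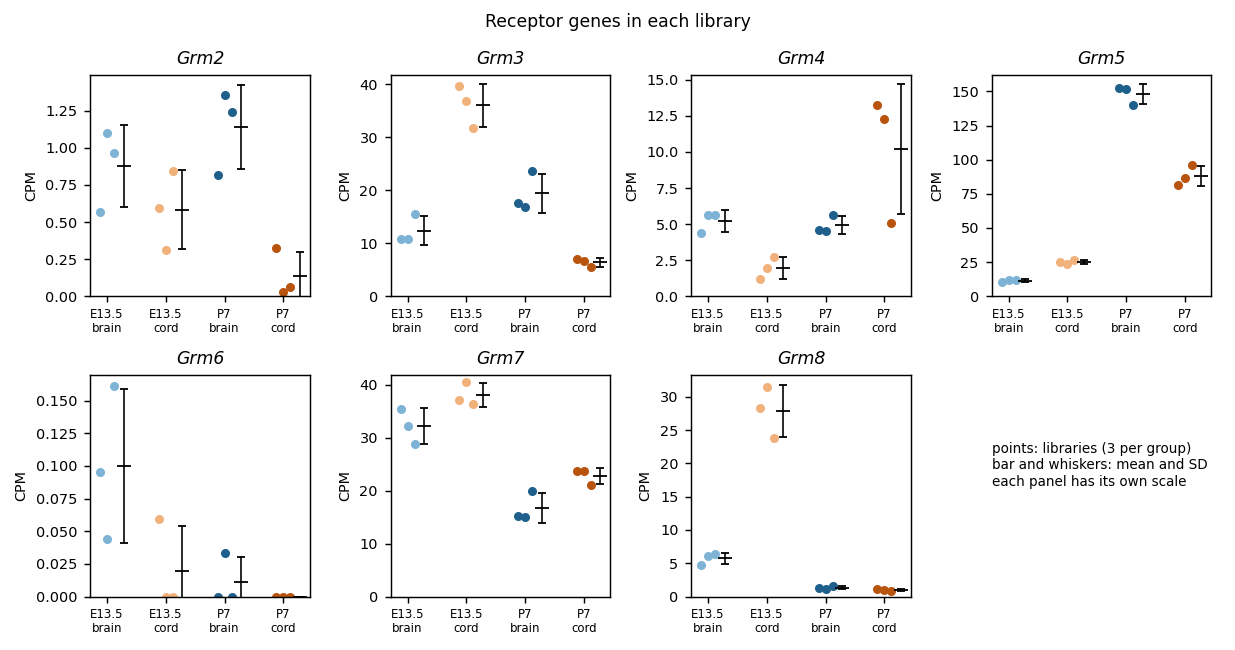
CPM (y axis, a separate scale for each gene) of the 7 receptor genes in the 12 libraries, by group (x axis). Points are libraries and the bar and whiskers give the mean and SD of 3 libraries. Grm5 stood above 81 CPM in every P7 library and below 27 CPM in every E13.5 library, and Grm3 and Grm8 were highest in E13.5 cord.

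Grm5, the group I receptor, rose with age in both regions and was the most abundant receptor transcript of P7 cells. In E13.5 brain its level was 10.4, 12.2 and 12.1 CPM in replicates 1 to 3, while E13.5 cord had 24.8, 23.6 and 26.5 CPM. At P7 it was 152.2, 152.1 and 139.8 CPM in brain and 81.7, 86.9 and 96.1 CPM in cord. No group overlapped another, and the order of the regions turned over: cord stood above brain at E13.5 and below it at P7. Grm5 rose 12.4-fold in brain (log2 difference 3.63 ± 0.09 (SE), adjusted p = 6.32e-11) and 3.48-fold in cord (1.80 ± 0.09, adjusted p = 4.83e-09). At E13.5 it was 2.12-fold lower in brain (log2 difference -1.08, adjusted p = 3.77e-06). At P7 it was 0.75 higher in brain on the log2 scale (adjusted p = 0.000101), which is under the 2-fold limit and is not called. The region difference itself changed with age by 1.83 ± 0.13 (adjusted p = 2.42e-06).

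Since the sort follows Pdgfra, Grm5 was also set against Pdgfra, which encodes the PDGF alpha receptor, a marker of OPCs. In the study's single-cell data no OPC cluster was found at E13.5. There, E13.5 clusters related to pericytes and leptomeningeal cells also expressed Pdgfra. A ratio to Pdgfra is therefore not a level per OPC, and its denominator can come from different cells at the 2 ages. Pdgfra rose with age by 2.20 on the log2 scale in brain (adjusted p = 2.24e-06) and 2.26 in cord (adjusted p = 1.13e-06). Per 1000 CPM of Pdgfra, Grm5 amounted to 17.0 ± 2.23 CPM (SD, n = 3) in the E13.5 and 47.7 ± 4.53 in the P7 brain. In cord it was 58.6 ± 17.3 at E13.5 (44.0 to 77.8) and 42.3 ± 4.87 at P7 (38.2 to 47.7), and these ranges overlap. On this ratio the age difference of Grm5 in cord was therefore within the spread of the libraries, while that in brain was not. The ratio of Grm8 went from 63.6 ± 5.65 in E13.5 cord to 0.461 ± 0.0684 at P7, and that of Grm3 from 82.9 ± 12.7 to 3.04 ± 0.283. In brain the ratio of Grm3 went from 18.2 ± 3.21 to 6.40 ± 2.21, which is opposite in sign to its difference in CPM. For Grm4 the ratio in cord was 4.73 ± 2.82 at E13.5 and 4.84 ± 2.03 at P7, with overlapping ranges, so that the rise of its CPM there does not appear on this ratio, and in brain it went from 7.66 ± 0.558 to 1.61 ± 0.451. In brain the ratio of Grm7 went from 48.9 ± 16.0 to 5.51 ± 1.76, and in cord from 87.8 ± 16.4 to 10.9 ± 0.412. The ranges of Grm7 did not overlap between ages in either region. All these ratios are descriptions, with no test.

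Grm3, a group II receptor well known in astrocytes, reversed its regional order. It measured 39.7, 36.8 and 31.7 CPM in E13.5 cord against 10.8, 10.9 and 15.5 CPM in E13.5 brain. At P7 the cord was lowest, with 6.99, 6.63 and 5.49 CPM, and the brain had 17.7, 16.9 and 23.6 CPM. The groups did not overlap, so each region kept its place in all 3 libraries at each age. Grm3 fell by 2.41 on the log2 scale in cord (SE 0.17, 5.32-fold, adjusted p = 6.94e-08). In brain its log2 difference of 0.63 ± 0.17 (adjusted p = 0.00638) is under 2-fold and is not called. It was 2.86-fold lower in brain at E13.5 (log2 difference -1.52, adjusted p = 3.17e-05) and 2.88-fold higher in brain at P7 (1.53, adjusted p = 4.20e-05). The change with age of the region difference was 3.04 ± 0.24 on the log2 scale (adjusted p = 3.99e-06), the largest of the 6 genes tested. Without E13.5 cord replicate 3 it was 3.13. The 9 astrocyte and radial glia markers summed to 1148 to 1210 CPM in E13.5 cord and 672 to 818 in P7 cord, against 1035 to 1358 and 1020 to 1117 in brain. Of these 9 markers, 4 were called higher and 2 lower with age in cord, and 5 higher and 1 lower in brain. Gja1 and Slc1a3 fell most in cord, from means of 540 and 424 CPM at E13.5 to 36.4 and 194 at P7. Other markers of this list went the opposite way in cord. Means rose from 89.5 to 258 CPM for Slc1a2, 10.6 to 76.3 for Aldoc and 46.6 to 90.2 for Fgfr3. Those of Aqp4 and Gfap rose from 0.139 and 0.247 CPM to 34.2 and 16.9. The summed vascular and leptomeningeal markers were, like Grm3, highest in E13.5 cord, at 11252 to 12739 CPM. At E13.5, 3 of these 9 were called lower in brain and none higher. Lum went the other way, with means of 474 CPM in E13.5 brain and 282 CPM in E13.5 cord. At P7 their sums overlapped between brain (1083 to 1455 CPM) and cord (1208 to 2600 CPM), and none of the 9 was called between regions. The summed microglia markers reversed their regional order without overlap as Grm3 did. Of these markers, 3 of 7 were called lower in brain at E13.5, 6 of 7 higher in brain at P7 and 5 of 7 higher for the change. Tmem119, the largest of them at E13.5, did not reverse. Its means in brain and cord were 17.4 and 44.0 CPM at E13.5 and 6.63 and 10.9 CPM at P7. P2ry12 had the higher mean in brain already at E13.5 (1.58 against 0.827 CPM). Of the red blood cell markers, 4 of 6 were called higher in brain at P7 and none was called between regions at E13.5. The part of any of these in the Grm3 result was not tested.

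Grm2, the other group II receptor and mainly known as a presynaptic receptor of neurons, stayed close to the detection limit. It had 0.57, 1.10 and 0.97 CPM in E13.5 brain, and E13.5 cord showed 0.60, 0.31 and 0.84 CPM. P7 brain had 0.82, 1.36 and 1.24 CPM, while P7 cord showed 0.324, 0.031 and 0.062 CPM. These rest on 115 reads over the 3 P7 brain libraries and 15 over the 3 P7 cord libraries, of which 12 were in replicate 1. Grm2 was higher in P7 brain than in P7 cord by 1.37 ± 0.25 on the log2 scale (adjusted p = 0.00147), with no overlap. That call was lost with a pseudocount of 1 (0.91, under 2-fold) and with all libraries thinned to equal depth (1.12, adjusted p = 0.0589). The change with age of the region difference, 1.01 ± 0.35 (adjusted p = 0.0363), was called in 11 of 25 other settings, and adjusted p ranged from 0.0191 to 0.564 over them. The remaining Grm2 comparisons were not called: log2 differences were 0.25 with age in brain (adjusted p = 0.389), -0.76 with age in cord (adjusted p = 0.0154, under 2-fold) and 0.36 between regions at E13.5 (adjusted p = 0.301). The age difference in cord is called by limma-voom (-2.23, adjusted p = 0.0112), edgeR (-1.77, 0.0343) and DESeq2 (-1.89, 0.00983) on the recovered reads. At P7 the microglia markers (6 of 7) and red blood cell markers (4 of 6) were called higher in brain as Grm2 was, and their part in the Grm2 result was not tested.

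Of group III, Grm8, a presynaptic receptor in neurons, fell most of the 6 tested genes. In E13.5 cord it measured 28.3, 31.5 and 23.8 CPM, against 4.80, 6.15 and 6.33 CPM in E13.5 brain. At P7 the values were 1.33, 1.09 and 1.64 CPM in brain and 1.11, 1.02 and 0.776 CPM in cord. Every E13.5 library lay above every P7 library, and the regions that stood well apart at E13.5 overlapped at P7. Grm8 fell by 4.27 on the log2 scale in cord (SE 0.17, adjusted p = 8.89e-10), where the ratio of group means was 28.8, and by 1.76 in brain (SE 0.17, adjusted p = 2.58e-06). At E13.5 it was 4.54-fold lower in brain (log2 difference -2.18, adjusted p = 2.04e-06). At P7 the log2 difference of 0.33 between regions was not called (adjusted p = 0.175). The region difference changed with age by 2.52 ± 0.25 (adjusted p = 1.58e-05), and by 2.62 without E13.5 cord replicate 3. The neuron markers, of which 7 of 11 were called lower with age in cord and 4 of 11 in brain, and the vascular and leptomeningeal markers (8 of 9 and 6 of 9 lower) moved mostly the same way as Grm8, with 1 neuron marker called higher in cord and 2 vascular markers called higher in brain. Between regions at E13.5, where Grm8 was lower in brain, 1 of 11 neuron markers was called higher in brain and 1 lower. Of the 9 vascular and leptomeningeal markers, 3 were called lower in brain and none higher. The part of these markers in the Grm8 result was not tested.

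Grm4, also a presynaptic receptor of group III, followed the opposite pattern in the cord. Its levels were 1.19, 1.96 and 2.70 CPM in E13.5 cord and 13.3, 12.3 and 5.06 CPM in P7 cord. In brain they were 4.37, 5.67 and 5.63 CPM at E13.5 and 4.60, 4.50 and 5.62 CPM at P7. The brain groups overlapped, while the E13.5 cord libraries were below all others. Replicate 3 of P7 cord stood well below the other two and within the range of brain. Grm4 rose 4.19-fold in cord (log2 difference 2.07 ± 0.32, adjusted p = 7.96e-05) and had a log2 difference of -0.08 ± 0.32 in brain (adjusted p = 0.843), whose sign flips under TMM (0.10). At E13.5 it was 2.40-fold higher in brain (1.26 ± 0.32, adjusted p = 0.00888), a call lost when reads were thinned to equal depth (1.13, adjusted p = 0.0983). At P7 the log2 difference was -0.88 ± 0.32 (adjusted p = 0.0537, not called). Without P7 cord replicate 3 it was -1.30 (adjusted p = 0.00299), and it was also called by edgeR and DESeq2 (-1.06 by each, adjusted p = 0.0197 and 0.00581). The change with age of the region difference was -2.15 ± 0.45 (adjusted p = 0.00258) and is the one called in the direction opposite to the other receptors. In P7 cord the summed mature OL markers were also lowest in replicate 3 (14724 CPM, against 18857 and 18840). The vascular and leptomeningeal markers were highest in that library (2600 CPM, against 1243 and 1208) and the astrocyte and radial glia markers lowest (672 CPM, against 818 and 800.2). The part of these cells in the Grm4 result was not tested.

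Grm7, a widely expressed presynaptic receptor of low glutamate affinity, had no called difference. It had 35.5, 32.3 and 28.8 CPM in E13.5 brain, and E13.5 cord showed 37.1, 40.5 and 36.3 CPM. At P7 it had 15.3, 15.0 and 19.9 CPM in brain and 23.7, 23.7 and 21.03 CPM in cord. All P7 libraries were below all E13.5 libraries, yet no difference reached 2-fold. The log2 differences with age were -0.93 ± 0.12 in brain (adjusted p = 2.66e-05) and -0.72 ± 0.12 in cord (adjusted p = 0.000162). Without E13.5 brain replicate 3 the brain value was -1.01, and without P7 brain replicate 3 it was -1.06, so that each of these passed the 2-fold limit. The region differences were -0.24 at E13.5 (adjusted p = 0.155) and -0.45 at P7 (adjusted p = 0.0152). The change between them was -0.21 ± 0.17 (adjusted p = 0.361), and its sign flips under median-ratio scaling (0.10).

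Grm6 had 8 reads over all 12 libraries. In E13.5 brain there were 2, 1 and 3 reads (0.095, 0.044 and 0.161 CPM), E13.5 cord had 1, 0 and 0, P7 brain had 0, 1 and 0, and P7 cord had none. No library exceeded 3 reads, the limit that a count of 0 allows, and the gene was not tested. Of the cascade genes listed beside it, Gpr179, which tethers the signalling complex of ON bipolar cells, passed the filter, and Trpm1, Nyx and Lrit3 did not. Gpr179 rose by 1.04 on the log2 scale in brain (adjusted p = 0.0134) and 1.53 in cord (adjusted p = 0.000912).

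Counted together, 2 of the 6 tested genes were called with age in brain, Grm5 higher and Grm8 lower, where 27.7% of all tested genes were called (11% higher and 16.7% lower). In cord 4 were called with age, Grm4 and Grm5 higher and Grm3 and Grm8 lower, beside a background of 35.1% (16.9% higher and 18.2% lower). Between regions at E13.5, Grm4 was called higher in brain and Grm3, Grm5 and Grm8 lower, 4 genes where 8.71% of all genes were called (3.53% higher and 5.17% lower). At P7, Grm2 and Grm3 were called higher in brain and none lower, where 6.62% were called (2.27% higher and 4.35% lower). The change with age of the region difference was called for 5 genes, all but Grm7, where 16.3% were called (6.66% higher and 9.66% lower). The share of higher calls among all called genes moved with the scaling: under TMM it was 49.3% in place of 39.7% with age in brain, 46.8% in place of 34.3% between regions at P7, and 55.0% in place of 40.8% for the change with age. Median log2 differences over the 6 genes, in the same order of comparisons, were 0.09, -0.74, -0.66, 0.54 and 1.42, against -0.19, 0.12, 0.05, -0.19 and -0.24 over all tested genes. The comparisons share groups and are not independent of each other.

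**Figure D2:**
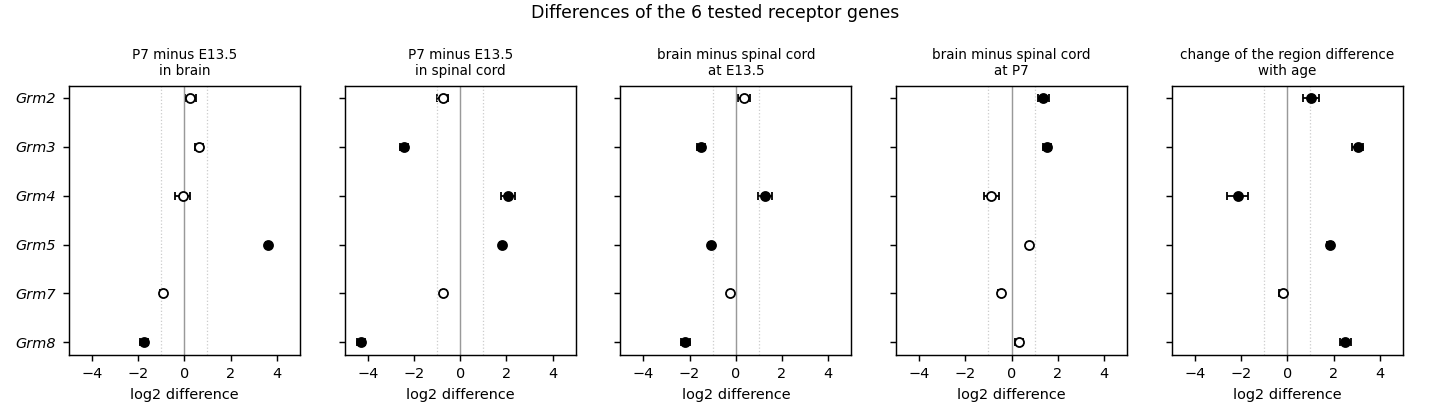
Log2 differences (x axis, on the log2(CPM + 0.5) scale) of the 6 tested receptor genes (y axis) in the 5 comparisons, with standard errors as whiskers. Filled points are called, open points are not, and dotted lines mark 2-fold. The points of Grm3 lie on opposite sides of 0 at E13.5 (-1.52) and P7 (1.53).

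Exon length differs between these genes, so levels of different genes were compared as CPM per kb of exon. Their sum was 12.3 ± 0.562 (SD, n = 3) CPM per kb in E13.5 brain, 24.0 ± 1.56 in E13.5 cord, 24.8 ± 1.12 in P7 brain and 16.4 ± 0.631 in P7 cord. The make-up differed more than the sum. Grm5 held 9.13 ± 0.698% of it in brain and 10.2 ± 1.28% in cord at E13.5, but 58.3 ± 5.30% and 52.6 ± 6.32% at P7. Grm7 led in E13.5 brain with 44.6 ± 6.42%, and Grm3 led in E13.5 cord with 49.2 ± 2.72%. Grm8 held 11.7 ± 1.02% in E13.5 cord and 0.593 ± 0.0865% in P7 cord, and Grm4 1.38 ± 0.621% and 10.3 ± 4.28%.

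The order per kb in E13.5 brain was Grm7, Grm3, Grm5, Grm4, Grm8, Grm2 and Grm6, in which, of the neighbours, Grm7 and Grm3 overlapped between libraries. In E13.5 cord it was Grm3, Grm7, Grm8, Grm5, Grm4, Grm2 and Grm6, where Grm8 and Grm5 overlapped. P7 brain had Grm5, Grm3, Grm7, Grm4, Grm2, Grm8 and Grm6, with no overlap between neighbours. P7 cord had Grm5, Grm7, Grm3, Grm4, Grm8, Grm2 and Grm6, where Grm3 and Grm4 overlapped. Gene length in reads can differ from annotated exon length where 1 isoform is used, so near neighbours in these orders are approximate.

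**Figure D3:**
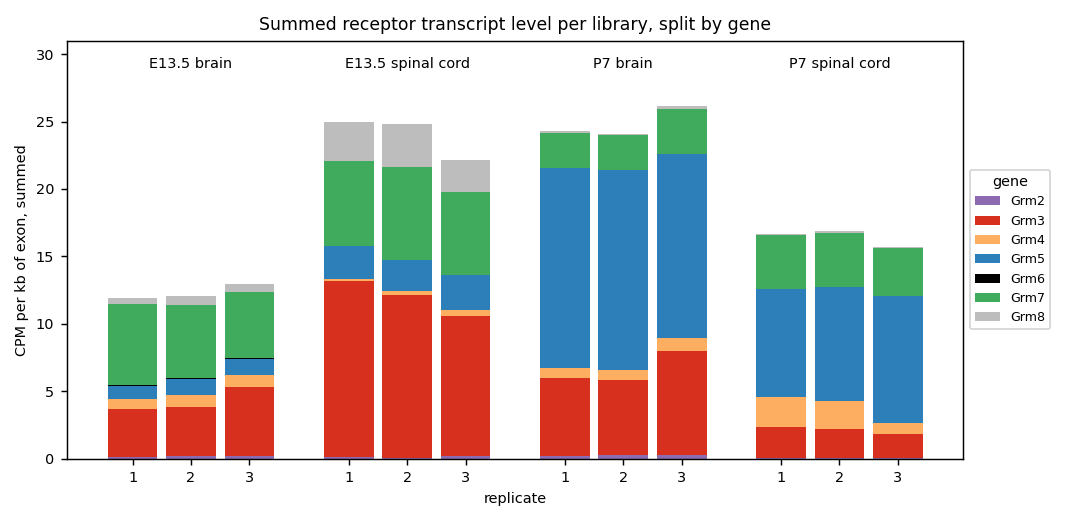
Summed CPM per kb of exon (y axis) of the 7 receptor genes in each library (x axis, replicates by group), split by gene. Grm5 takes 52.6 to 58.3% of the bar on average at P7, and Grm3 with Grm7 take most of it at E13.5.

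The surrounding pathway was followed through a list of 77 genes, of which 74 were tested. With age, 29 were called in brain (23 higher, 6 lower) and 36 in cord (22 higher, 14 lower). Between regions, 12 were called at E13.5 (2 higher in brain, 10 lower) and 8 at P7 (6 higher, 2 lower). The change with age of the region difference was called for 18 (13 higher, 5 lower). Shares called were 39.19, 48.65, 16.22, 10.81 and 24.32% in this order, against 27.7, 35.1, 8.71, 6.62 and 16.3% of all tested genes. Median log2 differences over the 74 genes were 0.48, 0.28, -0.18, -0.16 and 0.14 in the same order, and those over all tested genes are given above.

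Among 17 scaffolds and binding partners, 4 were called with age in brain, all higher, and 6 in cord, 5 of them higher. These shares (23.5 and 35.3%) were near or under those of all tested genes (27.7 and 35.1%). Elfn2 and Elfn1 encode adhesion proteins that bind group III receptors across the synapse. Elfn2 had mean levels of 3.29 and 6.71 CPM in E13.5 brain and cord and 102 and 142 CPM at P7, and rose by 4.77 in brain (adjusted p = 3.40e-11) and 4.31 in cord (adjusted p = 4.72e-11) on the log2 scale. Elfn1 rose by 2.28 (adjusted p = 5.35e-06) and 3.35 (adjusted p = 1.04e-07). Of the Homer scaffolds, which tie Grm5 to calcium stores, Homer2 rose by 1.92 in cord (adjusted p = 2.44e-09) and had a log2 difference of 0.81 in brain, under 2-fold. Homer1 had 72.7 and 63.7 CPM in E13.5 brain and cord and 89.4 and 98.7 CPM at P7, and was not called.

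On the signalling side, 1 of 8 G protein genes was called with age in brain and 2 in cord, all higher. These shares (12.5 and 25%) were under those of all tested genes (27.7 and 35.1%). Gnai1, an inhibitory alpha subunit, rose by 1.35 in brain (adjusted p = 4.21e-07) and 2.34 in cord (adjusted p = 2.36e-09). Of 10 genes of the Gq branch, 4 were called higher and 1 lower with age in brain (50%), and 3 higher and 4 lower in cord (70%). Itpr2, an IP3 receptor of calcium stores, went from means of 53.0 and 76.5 CPM at E13.5 in brain and cord to 693 and 845 CPM at P7, a rise of 3.69 (adjusted p = 2.12e-08) and 3.52 (adjusted p = 1.75e-08). The other IP3 receptor genes, named after their values were seen, had lower means at P7. Itpr3 had means of 26.3 and 42.2 CPM at E13.5 and 3.41 and 3.56 CPM at P7, and fell by 2.79 in brain (adjusted p = 3.78e-08) and fell by 3.40 in cord (adjusted p = 4.14e-09). Itpr1 fell by 1.91 in cord (adjusted p = 6.98e-05) and had a log2 difference of -0.86 in brain (adjusted p = 0.021, under 2-fold). Plcb1, a phospholipase C of this branch, rose by 1.58 in brain (adjusted p = 1.51e-06) and had 0.65 in cord, under 2-fold.

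Of the 9 adenylyl cyclase genes, which make the cAMP that group II and III receptors lower, 4 were called lower in brain than in cord at E13.5 and none higher. This is 44.4%, where 8.71% of all tested genes were called. Adcy7 (5.23 against 38.7 CPM, log2 difference -2.74, adjusted p = 2.45e-05) and Adcy8 (2.5 against 13.45 CPM, -2.21, adjusted p = 3.32e-08) were the largest, and both were called lower in brain at P7 as well (-1.47 and -1.76). Adcy1 went the way of Grm3 and Grm5 in its regional order. Its levels were 43.3, 34.8 and 32.7 CPM in E13.5 brain, while E13.5 cord had 129, 143 and 94.0 CPM. P7 brain had 173, 173 and 145 CPM, and P7 cord 72.1, 67.0 and 83.2 CPM. It was called lower in brain at E13.5 (-1.70, adjusted p = 6.37e-06) and higher in brain at P7 (1.14, adjusted p = 0.000214). Adcy4 fell with age by 3.18 in brain (adjusted p = 8.95e-08) and fell by 3.94 in cord (adjusted p = 8.11e-09).

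Desensitisation genes, which end receptor signals, had 4 of 11 called with age in brain (3 higher, 1 lower) and 4 in cord (1 higher, 3 lower). This is 36.4% in each, against 27.7% of all tested genes in brain and 35.1% in cord. Rgs4, a GTPase activator that shortens Gi and Gq signals, had 3.33, 3.43 and 4.13 CPM in E13.5 brain, while E13.5 cord had 13.3, 14.7 and 16.5 CPM. At P7 it had 4.998, 4.20 and 5.84 CPM in brain and 1.78, 2.04 and 0.962 CPM in cord. Its groups reversed their regional order as those of Grm3 did, with log2 differences between regions of -1.90 at E13.5 (adjusted p = 2.48e-05) and 1.42 at P7 (adjusted p = 0.000307), and a change between them of 3.32 ± 0.29 (adjusted p = 7.72e-06). Rgs8 fell with age by 3.62 in brain (adjusted p = 1.12e-09) and fell by 3.64 in cord (adjusted p = 6.90e-10).

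Genes that set how much ligand reaches the receptors were followed as 13 genes of glutamate uptake, release and synthesis. Of these, 8 were called with age in brain (6 higher, 2 lower) and 9 in cord (6 higher, 3 lower). The shares were 61.5 and 69.2%, against 27.7 and 35.1% of all tested genes. Slc1a1, a glutamate uptake transporter, rose by 5.09 in brain (adjusted p = 5.84e-10) and 4.93 in cord (adjusted p = 4.57e-10). Slc17a6, a vesicular glutamate transporter that is also on the neuron marker list, fell by 4.07 in brain (adjusted p = 5.72e-08) and fell by 4.63 in cord (adjusted p = 1.08e-08). Slc17a7, the vesicular transporter typical of cortical neurons, had mean levels of 3.88 CPM in E13.5 and 8.71 CPM in P7 brain, and 0.079 and 0.031 CPM in cord. Slc7a11, which exports glutamate in exchange for cystine, was higher in brain at P7 (2.21, adjusted p = 0.000201) but not called at E13.5 (-0.99, adjusted p = 0.0242). Slc17a8, another vesicular transporter, was higher in brain at E13.5 (2.20, adjusted p = 0.000156), and its region difference changed by -1.69 (adjusted p = 0.00796). The dipeptide NAAG is a ligand of Grm3. Of 5 genes of NAAG synthesis and breakdown, 1 was called higher and 1 lower with age in brain (40%). In cord 2 were called higher and 1 lower (60%), against 27.7% of all tested genes in brain and 35.1% in cord. Folh1, which breaks NAAG down, had means of 0.174 and 0.373 CPM in E13.5 brain and cord and 10.03 and 4.67 CPM at P7, and rose by 3.96 (adjusted p = 9.74e-09) and 2.60 (adjusted p = 2.07e-07). Rimkla, a NAAG synthetase, rose in cord by 2.08 (adjusted p = 1.63e-07), and its region difference changed by -1.26 (adjusted p = 0.00101), while Rimklb was not called in any of the 5 comparisons.

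For each tested receptor the 2 genes with the most similar profile were found by Pearson's r of log2(CPM + 0.5) over the 12 libraries, among 13486 or 13487 other genes with a mean of at least 1 CPM. These are descriptions, in which the points share groups, depth and scaling. For Grm5, Camk2b, a calcium/calmodulin kinase gene, was among them (r = 0.995). Camk2b had means of 10.5, 16.9, 47.3 and 32.8 CPM in E13.5 brain, E13.5 cord, P7 brain and P7 cord, the same order of groups as Grm5. Grm3 was most like Rgs4 (r = 0.970) and Eva1a (r = 0.958). Grm8 was most like Adcyap1 (r = 0.994), which encodes the neuropeptide PACAP, and Sntb1 (r = 0.994), a syntrophin. Adcyap1 had means of 1.54 and 5.37 CPM at E13.5 and 0.384 and 0.138 CPM at P7 in brain and cord. Grm7 was most like Cdk9 (r = 0.988) and Dis3l2 (r = 0.987), Grm4 like Vcp-rs (r = 0.955) and Ndufaf2 (r = 0.951), and Grm2 like Ctxn1 (r = 0.910) and Coch (r = 0.887).

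**Figure D4:**
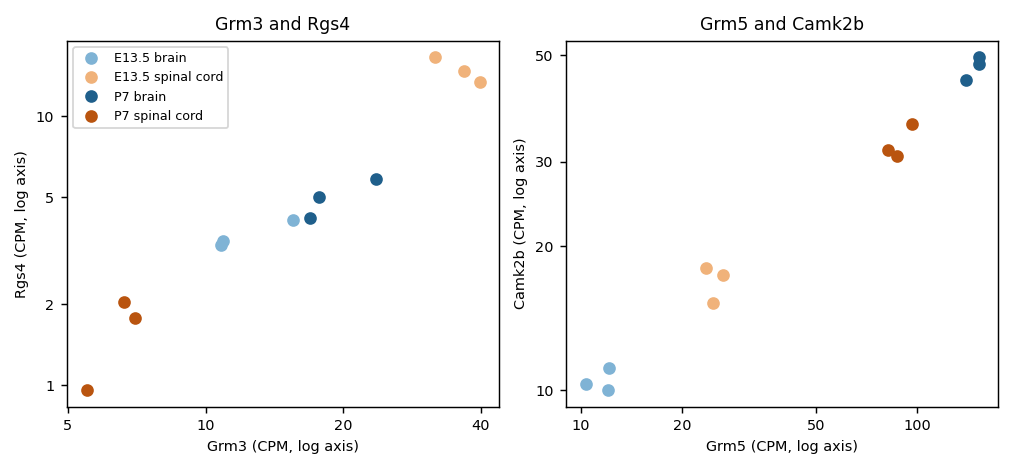
CPM of Rgs4 against Grm3 (left) and of Camk2b against Grm5 (right) in the 12 libraries, on log axes, coloured by group. P7 cord is lowest and E13.5 cord highest for Grm3 and Rgs4, and the 4 groups separate in the same order for Grm5 and Camk2b.

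Among the receptors themselves, Grm7 and Grm8 had similar profiles (r = 0.852 over 12 libraries), as did Grm3 and Grm8 (r = 0.764). Opposite profiles were those of Grm5 and Grm7 (r = -0.863), Grm3 and Grm4 (r = -0.822), and Grm4 and Grm8 (r = -0.788). The points fall into the 4 groups, so these values restate the group differences and carry no test.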

How the data were processed

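RNA of sorted Pdgfra/GFP+ cells was made into TruSeq Stranded Total RNA libraries. The authors aligned reads to mm10 with STAR 2.5.0a and counted them per GENCODE M8 gene with featureCounts 1.5.0-p1, sharing multimapping reads in fractions and rounding. Per the labels, HISAT2 2.0.5 and StringTie 1.3.1c were also used, with no role given here. The deposited table holds CPM on rescaled library sizes. In 3 columns (E13.5 spinal cord replicate 3, P7 spinal cord replicates 1 and 2) the deposited values sum to more than CPM on unscaled sizes would and are treated as a scaled signal on the same footing. Every value column was used (0 columns were left out). All values (100%) came out as whole reads within 0.01. Of 47072 rows, 3 identifiers are repeated with identical values and were used 1 time each. Symbols came from GENCODE M21 (46574 identifiers matched), and RefSeq promoter windows were read for 5 of the 7 receptors.

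The main test was limma 3.58.1 (R 4.3.3) with an intensity trend on log2(CPM + 0.5), 1 mean per group over 12 libraries and 5 contrasts. The study's own method, limma-voom, needs counts and was run on the recovered reads as an alternative, as were edgeR 4.0.16 and DESeq2 1.42.0. There were 26 alternative settings. In simulated data for P7 against E13.5 brain over 18319 genes, each tool recovered 200 of 200 genes changed 4-fold, with 0 to 2 false calls. The simulation gave every gene and library the same dispersion and changed only genes with means above that of Grm2. It held no library that stands apart as E13.5 cord replicate 3 does. It therefore checks that the tools ran correctly and does not measure power or false calls in these data.

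Members and gene lists were chosen with earlier results of these data known. All receptors are named. From the pathway list (80 symbols, of which 3 are alternate names), the rule names for each contrast the 3 genes called higher and the 3 called lower that moved most, at 1 CPM or more in the higher group, and direct partners of called receptors. Genes with similar profiles are the 2 highest by Pearson's r. Some genes that these rules pick are not reported here. The limit of 3 reads covers counting error only. Values after ± are standard errors of the fit or SDs of 3 libraries, and like the p-values they rest on the spread between pooled libraries.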

Additional observations from a re-analysis of the deposited data

Results flagged for a closer look

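The age difference of 5 receptor genes differed between brain and spinal cord, by a test of the difference itself (limma, change of the region difference with age, adjusted over 18319 genes). It was 3.04 on the log2 scale for Grm3, 2.52 for Grm8, 1.83 for Grm5 and -2.15 for Grm4. For Grm2 it was 1.01 and rests on few reads. Positive values mean that the brain gained relative to the spinal cord between E13.5 and P7. Groups of 3 libraries are too small for the check for single libraries far from the rest.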

How the results depend on the processing

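Of 17 called receptor comparisons, 14 kept their direction and call in every one of the settings that were run for them. The exceptions were Grm2 between regions at P7, the change of the Grm2 region difference with age, and Grm4 between regions at E13.5, each given above with its values. Between regions at P7 the number of receptors called was 2, and became 1 with a pseudocount of 1, 1 with a filter of 2 CPM (which drops Grm2), 1 with reads thinned to equal depth and 4 with no fold threshold. With no fold threshold, 4 receptors were called with age in brain. The pathway genes called then became 56 and 58 with age in brain and spinal cord, 35 and 27 between regions at E13.5 and P7, and 35 for the change with age. All genes called became 11227, 12822, 5979, 5491 and 7290 in the same order. Signs reversed for uncalled values only: Grm4 with age in brain became 0.10 with TMM, 0.11 with median-ratio scaling and 0.17 with thinned reads, the change of the Grm7 region difference became 0.10 with median-ratio scaling, and Grm8 between regions at P7 became -0.031 with thinned reads. Leaving out 1 library at a time gave 2 to 3, 4 to 4, 4 to 4, 2 to 3 and 4 to 5 receptors called, 26 to 29, 35 to 36, 10 to 13, 7 to 9 and 14 to 22 pathway genes, and 4886 to 5094, 6157 to 6910, 1482 to 1703, 1097 to 1244 and 2745 to 3715 genes. Low reads limit Grm2 and Grm6.

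Replicate numbers are shared by the groups, and whether same-numbered libraries share animals was not stated. Between regions at E13.5, same-numbered libraries deviated with r = 0.31, 0.08 and 0.41, against -0.44 to 0.20 for the other pairs. At P7 same-numbered libraries had r = 0.01, 0.02 and 0.04, against -0.06 to 0.06. These values do not settle whether the E13.5 libraries were paired, and the main fit used no pairing. With the replicate block, 4 in place of 5 receptors were called for the change with age, Grm2 being lost (adjusted p = 0.0529, and 0.0588 with the block within age), and genes called were 5074 with age in brain, 6438 in spinal cord, 1595 and 1212 between regions and 2994 for the change with age. The block within age was not run for the age comparisons.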
